A study of Mus musculus with 9 samples.

Results

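The integrins described here were 10 subunits of mesenchymal and epithelial cells, the α subunits Itga1, Itga3, Itga5, Itga6, Itga8, Itga9 and Itgav and the β subunits Itgb1, Itgb3 and Itgb5. They were chosen by name, as every probe carrying the gene's symbol, and made up 10 of 30854 gene symbols on the array. They were read by 19 probes, of which 13, from 8 of the subunits, passed the filter on dim probes (detected in 3 or more of the 9 arrays, at a detection p under 0.05). Itga8 and Itgb3 had no probe that passed.

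Illumina bead arrays of the MouseWG-6 v2.0 type were used on 9 samples of activated hepatic stellate cells (aHSCs) from WT1GFP/+ mice, all labelled as male and of strain C57/Bl6, in which green fluorescent protein (GFP) is expressed from 1 allele of the WT1 locus. WT1-high (GFP-high) and WT1-intermediate (GFP-low) cells, 3 arrays each, were sorted directly from livers chronically injured by intraperitoneal carbon tetrachloride. WT1-negative (GFP-negative) cells, 3 arrays, were sorted after quiescent cells had been activated on plastic for 7 days. All samples therefore carried the reporter allele, and no WT1-negative cells from injured liver were among the arrays. In each comparison with WT1-negative cells, WT1 status and the origin of the cells (liver or culture) cannot be told apart. The labels only number the samples, whereas the study's methods take replicates as individual animals in vivo and as independent isolations of cells in vitro. Replicates are named by the numbers of their labels.

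Integrins are receptors made of 1 α and 1 β subunit that span the cell membrane. They bind proteins of the extracellular matrix outside the cell and, through talin, kindlin and other adaptors, the actin cytoskeleton within it. In the liver, αv integrins of myofibroblasts are known for releasing active TGF-β from its latent matrix-bound complex, whereas α3, α6 and β4 integrins bind laminins of basement membranes in epithelia and mesothelium.

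The results turn on Itga3, the member that differed most from cultured cells, and on Itgb5, the 1 member called between the liver populations. The 30 bases at the start of each of their 50-base probes are therefore shown with those of the pair of Itgb1 probes, which gave different values.
Itga3, probe ILMN_2616164: cacggtactataacaacttccccgatcctg
Itgb5, probe ILMN_2663613: gccagacaagaaggtatccggaagagtctg
Itgb1, probe ILMN_2609304: aggcccgccgacgccacccgagaccaaccg
Itgb1, probe ILMN_2789077: cacaaatactgtaagctgtcctgctgcttg
The Itgb1 probes differed in base composition, with 76% G or C over the 50 bases of ILMN_2609304 and 56% over those of ILMN_2789077. Per the array annotation, the tested subunits with a listed position lie on chromosomes 13 (Itga1), 11 (Itga3), 15 (Itga5), 2 (Itga6 and Itgav), 9 (Itga9), 8 (Itgb1) and 16 (Itgb5). Of the members, 8 had a promoter in RefSeq (GRCm38.p6). The 250 bases before the start are shown for Itga3 (minus strand, chr11:95076715-95076964, the more upstream of its starts) and for Itgb5 (plus strand, chr16:33829415-33829664). Capitals mark GGGCGG or its reverse complement, the GC box bound by Sp and KLF factors.
Itga3 promoter: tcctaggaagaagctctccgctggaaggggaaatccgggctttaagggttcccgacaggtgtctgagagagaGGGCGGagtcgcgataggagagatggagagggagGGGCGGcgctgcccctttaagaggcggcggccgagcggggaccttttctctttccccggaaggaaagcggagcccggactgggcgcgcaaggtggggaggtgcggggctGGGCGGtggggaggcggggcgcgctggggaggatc
Itgb5 promoter: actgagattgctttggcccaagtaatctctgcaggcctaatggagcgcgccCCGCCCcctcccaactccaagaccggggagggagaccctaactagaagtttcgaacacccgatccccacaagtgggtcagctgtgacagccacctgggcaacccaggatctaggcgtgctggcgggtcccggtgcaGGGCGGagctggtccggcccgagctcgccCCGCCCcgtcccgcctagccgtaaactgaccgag
A GC box on either strand stood in the promoters of 4 of the 8 members (Itga3, Itga5, Itgb1 and Itgb5). Counted by window, of which Itga3 had 2, it stood in 5 of 9, against 32.7% of 32851 promoter windows of this length. The AP-1 motif TGANTCA stood in none of the 9 windows, against 6.75% of all windows, and the TEAD motif GGAATG in 1 (Itgb1), against 12.6%. No match overlapped one of another motif. These are matches of letters, and binding was not measured.

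Levels are given as log2 normalised intensity, which holds a background offset of 16 and so understates the change of dim probes. Levels are compared only within a probe, since probes differ in brightness for reasons other than expression. In sorted populations, fewer cells of a type and less RNA per cell cannot be told apart. Each array detected between 38.1% and 43.7% of its gene probes, and precision is limited by there being 3 arrays a group.

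The labelled cell type was checked against its markers, with the intensities of each list summed per array. The summed stellate cell markers reached 15174 to 16559 in WT1-high cells, 15829 to 19780 in WT1-intermediate cells and 3956 to 4980 in WT1-negative cells. Of 10 tested stellate genes, 5 were higher and 3 lower in WT1-high than WT1-negative cells, and 5 higher and 2 lower in WT1-intermediate cells. In WT1-high against WT1-intermediate cells 1 was higher and 2 were lower. Over all tested probes 59.6%, 58% and 3.55% were called in these comparisons. Of the defining genes, Gfap was detected on no array, and Lrat on no WT1-intermediate or WT1-negative array. Ngfr was detected on no WT1-intermediate array and Colec11 on no WT1-negative array. Macrophage markers summed to between 4078 and 6897 in WT1-high cells, 13978 and 21403 in WT1-intermediate cells and 46810 and 52528 in WT1-negative cells. Between the populations from injured liver, 9 of the 12 macrophage genes were lower in WT1-high cells and none was higher (4 were lower under scaling to the median of all probes, described below). Against WT1-negative cells, 1 was higher and 8 lower in WT1-high cells, with 59.6% of all tested probes called. In WT1-intermediate cells 3 were higher and 5 lower, with 58% of all tested probes called, so the list divided there. Summed mesothelial markers ran opposite to the macrophage sums, at 33954 to 37738, 19538 to 26812 and 359 to 452. Of the 9 mesothelial genes, 1 was higher in WT1-high than WT1-intermediate cells and none was lower. Under settings described below, none was called with cyclic loess or the median of detected probes. With the median of all probes 6 were higher, beside 2563 of all 20573 tested probes higher. Skeletal muscle markers summed to between 6343 and 9619 on the WT1-negative arrays, where 8 of 9 were detected on every array, and to at most 272 elsewhere. The part of these other cell types in the integrin values below was not tested.

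**Figure D1:**
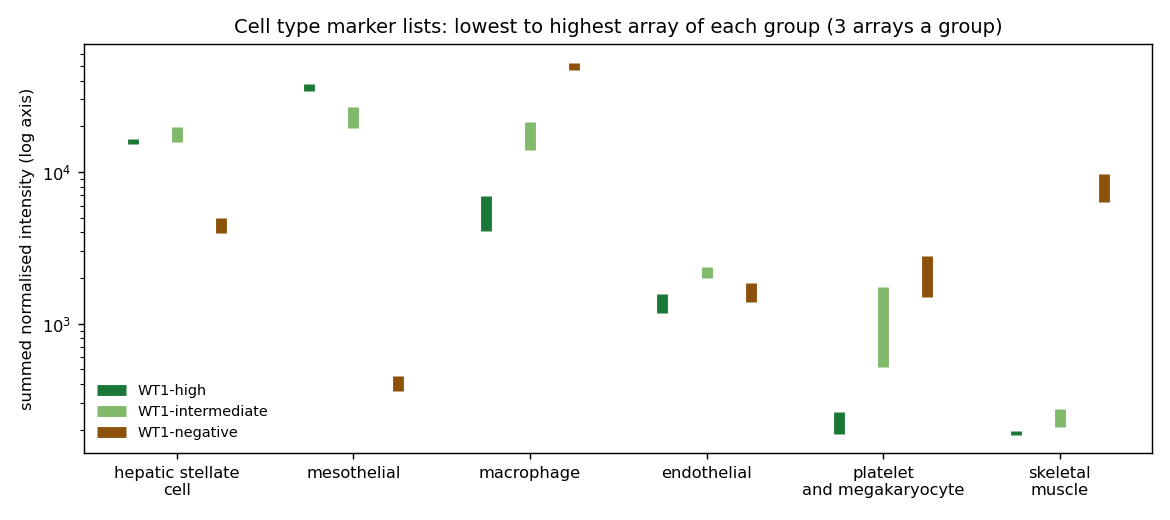
Summed normalised intensity of 6 marker lists (log axis), from the lowest to the highest of the 3 arrays of each group. The macrophage sum was lowest in WT1-high cells (4078 to 6897) and highest in WT1-negative cells (46810 to 52528), and the mesothelial sum lay at 359 to 452 in WT1-negative cells.

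Between WT1-high and WT1-intermediate aHSCs, Itgb5 was the member that passed the test. Of the 8 tested members, each read by its brightest probe, 1 was lower in WT1-high cells (Itgb5), none was higher and 2 had an unadjusted p under 0.05. Over all 20573 tested probes, 3.55% were called in this comparison, 0.904% higher and 2.64% lower (adjusted p under 0.05, limma with Benjamini-Hochberg adjustment). The groups did not overlap for 3 members (Itga3, Itgb1 and Itgb5), 2 of them higher and 1 lower, and for 20.1% of all tested probes, 11.5% higher and 8.6% lower. The median member difference was 0.00 on the log2 scale, beside 0.05 over all tested probes. With the same-numbered liver samples paired, the count over all probes rose from 730 to 1656, and the member count was again 1. Without WT1-intermediate replicate 1, WT1-high replicate 8 or WT1-high replicate 29, the count over all probes dropped to 324, 333 and 371.

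Against WT1-negative cells the members divided. Of the 8, 1 was higher in WT1-high cells (Itga3) and 1 lower (Itga6), whereas 59.6% of all tested probes were called, 26.5% higher and 33.1% lower. In WT1-intermediate cells 2 were higher (Itga3 and Itgb5) and 2 lower (Itga6 and Itgb1), against 58% of all probes, 24.4% higher and 33.6% lower. The groups did not overlap for 3 members in the former comparison, 1 higher and 2 lower, and for 68.4% of all tested probes, 30.7% higher and 37.7% lower. In the latter they did not overlap for 4 members, 2 higher and 2 lower, and for 65.5% of all tested probes, 28% higher and 37.5% lower. The median member difference from WT1-negative cells was -0.15 in WT1-high cells, whereas WT1-intermediate cells had a median of 0.01, beside -0.10 and -0.13 over all tested probes. Both comparisons used the same WT1-negative arrays.

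**Figure D2:**
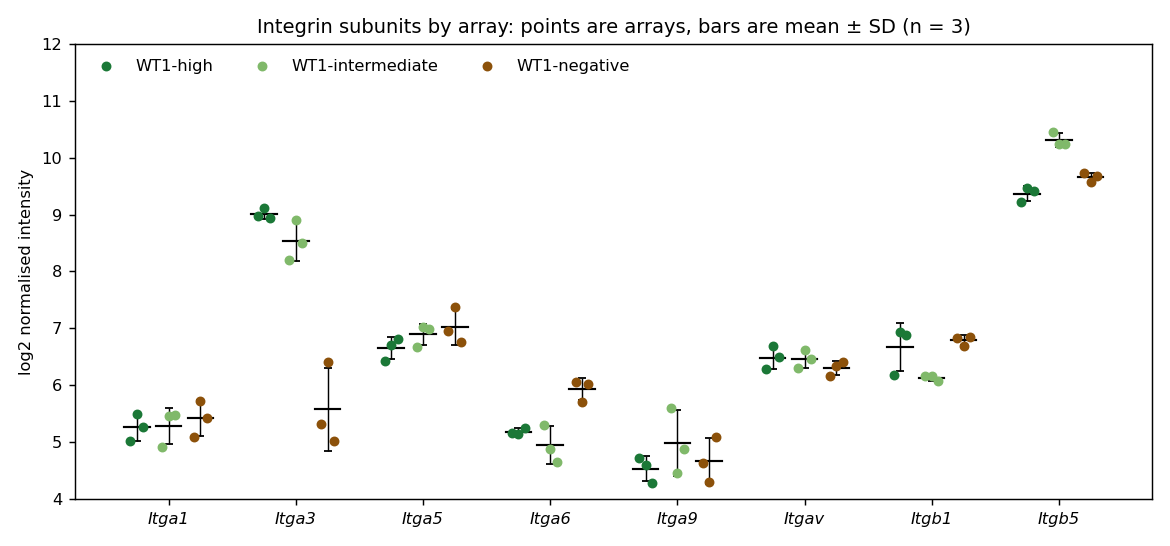
Log2 normalised intensity of the brightest probe of the 8 tested subunits, with 1 point per array, horizontal lines for means and bars for SD (n = 3). Itga3 lay between 8.21 and 9.11 on the liver arrays and between 5.02 and 6.41 on the WT1-negative arrays, and Itgb5 was highest in WT1-intermediate cells.

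Itga3 encodes the α3 subunit, which pairs with β1 as a receptor for laminins. Its level was 8.98, 9.11 and 8.94 in WT1-high replicates 1, 8 and 29. It was 8.21, 8.90 and 8.50 in WT1-intermediate replicates 1, 8 and 30. It was 5.31, 6.41 and 5.02 in WT1-negative replicates 3, 11 and 14. Every WT1-high array lay above every WT1-intermediate array, and all liver arrays lay far above the cultured cells, among which replicate 11 was the highest. The level was 10.8-fold higher in WT1-high than WT1-negative cells (log2 difference 3.43, SE 0.31, adjusted p = 3.3e-06) and 7.78-fold higher in WT1-intermediate cells (2.96, SE 0.31, adjusted p = 1.2e-05). Both rises were called under each of 19 alternative settings. The difference between the liver populations, 0.48 (95% interval -0.20 to 1.15, adjusted p = 0.47), was not called. The summed mesothelial markers given above followed the same order of groups as Itga3, although 1 of the 9 was called between the liver populations. All 9 mesothelial markers were higher in either liver population than in WT1-negative cells. Of all tested probes, 59.6% (WT1-high) and 58% (WT1-intermediate) were called in these comparisons, 26.5% and 24.4% as higher. Of 7 tested T and NK cell markers, 7 and 6 were higher, and of 5 hepatocyte markers 5 and 4. All 8 tested skeletal muscle markers were lower in both. A rise against cultured cells was thus not particular to mesothelial markers.

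Itgb5 encodes β5, which pairs with αv and binds vitronectin and latent TGF-β. Its level was 9.22, 9.47 and 9.41 in WT1-high cells. It was 10.45, 10.23 and 10.23 in WT1-intermediate cells. It was 9.72, 9.56 and 9.67 in WT1-negative cells. No groups overlapped, with WT1-intermediate cells highest, WT1-negative cells between and WT1-high cells lowest. The level was 1.91-fold lower in WT1-high than WT1-intermediate cells (log2 difference -0.94, SE 0.14, adjusted p = 0.0053). It was 1.57-fold higher in WT1-intermediate than WT1-negative cells (0.65, SE 0.14, adjusted p = 0.0023). WT1-high and WT1-negative cells, neighbours in this order, differed by -0.28 (95% interval -0.60 to 0.03, adjusted p = 0.11), which was not called, although it was with no background correction (-0.26, adjusted p = 0.030), an offset of 50 (-0.27, adjusted p = 0.038) or array weights (-0.33, adjusted p = 0.031).

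Both Itgb5 calls depended on how the arrays were scaled. With each array scaled to the median of all its gene probes, the difference of WT1-high from WT1-intermediate cells became -0.24 (adjusted p = 0.52) and that between WT1-intermediate and WT1-negative cells -0.08 (adjusted p = 0.81), so the former call was lost and the latter turned in sign. That scaling moved the median of all tested probes to 0.45 and -0.44 in these comparisons. Relative to those medians, Itgb5 differed by -0.69 and 0.36, against -0.98 and 0.79 under quantile normalisation. With the median taken over probes detected on all arrays, a scaling added after this result had been seen, the differences were -0.87 (adjusted p = 0.018) and 0.63 (adjusted p = 0.011). Cyclic loess gave -0.94 and 0.67 with both calls retained. Both folds lie under 2, so neither call met the alternative that also asked for a change of at least 2-fold. Under the other alternatives both calls were retained. The summed macrophage markers, given above, were lowest in WT1-high cells and highest in WT1-negative cells, although the single genes divided between WT1-intermediate and WT1-negative cells. The part of macrophage markers in the Itgb5 values was not tested.

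Itgav encodes αv, the partner of β1, β3, β5, β6 and β8 and the α subunit of the TGF-β activating integrins. Its brightest probe was at 6.28, 6.68 and 6.49 in WT1-high cells, 6.31, 6.61 and 6.46 in WT1-intermediate cells and 6.16, 6.35 and 6.40 in WT1-negative cells. The 3 groups overlapped and no difference was called, with 95% intervals of -0.32 to 0.37 between the liver populations, -0.17 to 0.53 for WT1-high against cultured cells and -0.19 to 0.51 for WT1-intermediate against cultured cells. Of the other 3 Itgav probes, ILMN_1234725 was not detected on any array. ILMN_1254152 was detected on all WT1-intermediate arrays and no WT1-negative array and was called between them (at least 1.31-fold higher, log2 difference 0.71, adjusted p = 0.020), but the call was lost under 7 of 18 alternatives, among them without WT1-intermediate replicate 1 or 8 or WT1-negative replicate 3 or 11 (0.62 to 0.68, adjusted p from 0.054 to 0.066). ILMN_1251946 differed by -0.25 in that comparison (adjusted p = 0.25), so the Itgav probes did not give a common direction. The array annotation lists a chromosome and a gene number for the brightest Itgav probe alone. Whether the dimmer Itgav probes read the same transcripts was not tested.

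Itgb1 encodes β1, the common partner of the α1, α3, α5, α6, α8, α9 and αv subunits. By its brighter probe, ILMN_2789077, the level was 6.18, 6.94 and 6.89 in WT1-high cells, 6.16, 6.16 and 6.07 in WT1-intermediate cells and 6.83, 6.70 and 6.85 in WT1-negative cells. WT1-high replicate 1 was at the level of the WT1-intermediate arrays, whereas the other WT1-high arrays were at that of the cultured cells. The level was lower in WT1-intermediate than WT1-negative cells (log2 difference -0.66, SE 0.19, adjusted p = 0.013), but not called under cyclic loess (-0.47, adjusted p = 0.062) or scaling to the median of detected probes (-0.44, adjusted p = 0.093). WT1-high cells differed from WT1-intermediate cells by 0.54 (SE 0.19, adjusted p = 0.18). This was called without WT1-high replicate 1 (0.79, adjusted p = 0.026) and under scaling to the median of all probes (1.04, adjusted p = 0.046).

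The second Itgb1 probe, ILMN_2609304, was dimmer. It was at 5.65, 5.27 and 5.29 in WT1-high cells, 5.93, 5.59 and 5.67 in WT1-intermediate cells and 5.93, 8.01 and 6.23 in WT1-negative cells. The cultured arrays were widely spread, with replicate 11 far above the others. The difference between WT1-high and WT1-negative cells was called (-1.32, SE 0.42, adjusted p = 0.018), and was lost under 3 of 19 alternatives, among them without WT1-high replicate 8 (-1.24, adjusted p = 0.055). Between the liver populations its sign was opposite to that of the brighter probe (-0.33, adjusted p = 0.75). Against WT1-negative cells both probes were lower, with -0.12 (adjusted p = 0.60) by the brighter probe in WT1-high cells and -0.99 (adjusted p = 0.061) by the second probe in WT1-intermediate cells. Each of those comparisons was thus called by 1 of the 2 probes.

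Itga6 encodes α6, a laminin receptor subunit that pairs with β1 and β4. Its brightest probe, ILMN_1231492, was at 5.15, 5.14 and 5.25 in WT1-high cells, 5.31, 4.87 and 4.65 in WT1-intermediate cells and 6.05, 5.71 and 6.03 in WT1-negative cells. The cultured cells lay above all liver arrays, and the liver populations overlapped. Compared with cultured cells, the level was lower in WT1-high cells (log2 difference -0.75, SE 0.18, adjusted p = 0.0044) and WT1-intermediate cells (-0.99, SE 0.18, adjusted p = 0.00081). The WT1-high difference was called under each of 19 alternatives and the WT1-intermediate difference under all but scaling to the median of detected probes (-0.44, adjusted p = 0.086). A dimmer Itga6 probe, ILMN_1223670, detected on 5 arrays and with no listed chromosome or gene number, was not called. Its difference was 0.06 for WT1-high against WT1-negative cells. It was detected on no WT1-intermediate array, where it was at least 1.12-fold lower than in WT1-negative cells (adjusted p = 0.20). The remaining pair of Itga6 probes was detected on at most 1 array and not tested.

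Itga5 encodes α5, which with β1 forms the classical fibronectin receptor. Its brighter probe, ILMN_2849449, was at 6.43, 6.70 and 6.81 in WT1-high cells, 6.67, 7.02 and 6.99 in WT1-intermediate cells and 6.96, 7.37 and 6.75 in WT1-negative cells. All groups overlapped and no difference was called, the largest being -0.38 for WT1-high against WT1-negative cells (95% interval -0.80 to 0.04, adjusted p = 0.11). The dimmer probe, ILMN_2670172, was called in that comparison (-0.56, SE 0.21, adjusted p = 0.040), but the call was lost under 12 of 19 alternatives, among them without WT1-negative replicate 11 (-0.31, adjusted p = 0.17), WT1-high replicate 1 (-0.44, adjusted p = 0.14), WT1-high replicate 8 (-0.60, adjusted p = 0.060) or WT1-negative replicate 3 (-0.58, adjusted p = 0.070).

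Itga1, the α subunit of a collagen receptor, was detected on all 9 arrays by ILMN_2967445, at levels from 4.92 to 5.73. The groups overlapped and the differences were between -0.16 and -0.02, none called. Its other probe was not detected on any array. Itga9, whose product pairs with β1 and binds tenascin-C and osteopontin, was near background, detected on 5 of the 9 arrays at levels from 4.28 to 5.60, with no call. Itga8, known in stellate cells as a receptor for nephronectin, was detected only in WT1-intermediate replicate 30 (4.87), and Itgb3, a vitronectin receptor subunit, only in WT1-high replicate 1 (4.55). No difference in Itga8 or Itgb3 was measurable at this signal.

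**Figure D3:**
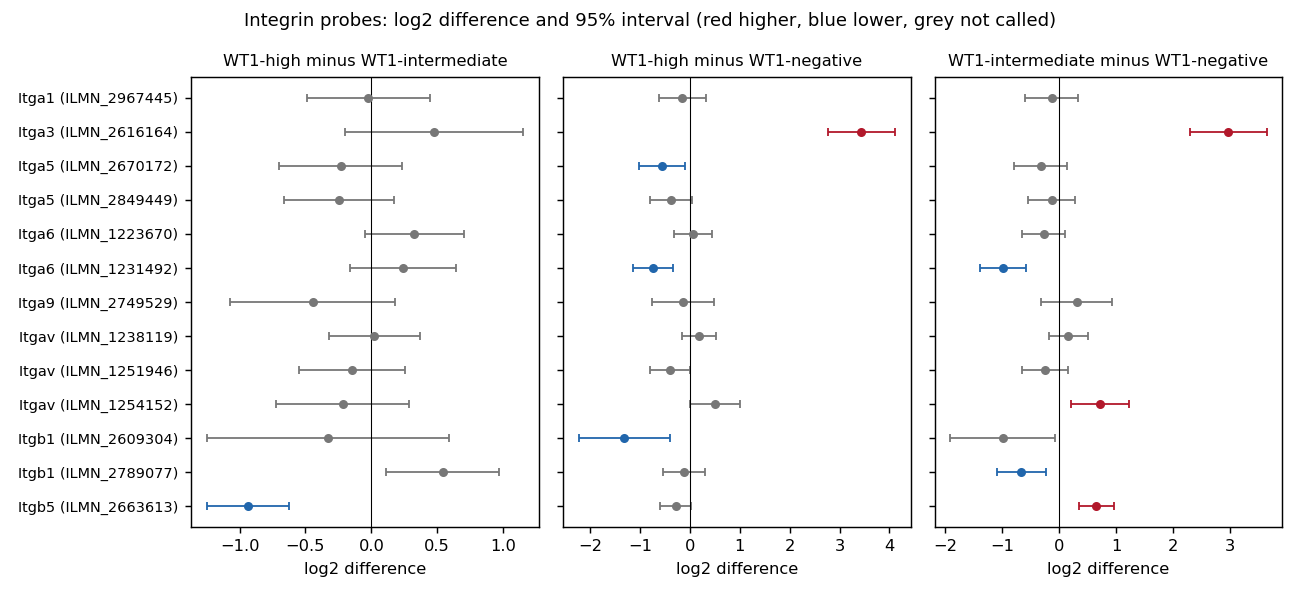
Log2 differences of the 13 tested probes of the 8 subunits in the 3 comparisons, with 95% intervals (points are differences, horizontal axes differ in range, red higher, blue lower, grey not called). Itga3 stood at 3.43 and 2.96 against WT1-negative cells, and Itgb5 at -0.94 between the liver populations.

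Other integrin subunits, among them those of laminin receptors and leukocytes, were described in the same way. Of 16 such subunits 15 were tested and Itga2 was not. In WT1-high against WT1-intermediate cells 1 was higher and 2 were lower, with 3.55% of all tested probes called. With the samples paired 2 were higher and 3 lower, adding Itga7 and Itgb7, beside 1656 of all 20573 tested probes called. Under scaling to the median of all probes 4 were higher and 1 lower. Over all tested probes that scaling gave 2563 higher and 121 lower, against 186 and 544 under quantile normalisation. Against WT1-negative cells 6 were higher and 3 lower in WT1-high cells, and 8 were higher and 2 lower in WT1-intermediate cells (4 and 2 under scaling to the median of all probes, 11 and 1 under that of detected probes). For WT1-intermediate cells these scalings gave 2545 higher and 8456 lower, and 7479 and 4061, over all tested probes. The counts under quantile normalisation stand beside 59.6% and 58% of all tested probes called. The list was not tested against the members or other genes.

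Itgb4, the β subunit of hemidesmosomes and partner of α6, was at 9.67, 10.31 and 10.01 in WT1-high cells, 8.40, 9.32 and 9.08 in WT1-intermediate cells and 5.64, 5.90 and 5.76 in WT1-negative cells. No groups overlapped. It was higher in WT1-high than WT1-intermediate cells (log2 difference 1.06, SE 0.24, adjusted p = 0.035), and 18.8-fold and 8.98-fold higher in WT1-high and WT1-intermediate than WT1-negative cells (adjusted p = 1.0e-07 and 1.2e-06). Itgb4 thus had the same order of groups as Itga3, whereas the brightest probe of its partner Itga6 was highest in cultured cells. Itga7, a laminin receptor subunit of muscle, was higher in WT1-high than WT1-negative cells (1.59, adjusted p = 0.00064).

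Itga11, a collagen receptor subunit of fibroblasts, was at 5.42, 6.05 and 7.17 in WT1-high cells, 8.09, 8.51 and 9.16 in WT1-intermediate cells and 6.37, 7.30 and 7.05 in WT1-negative cells. WT1-intermediate cells lay above both other groups, which overlapped. The level was lower in WT1-high than WT1-intermediate cells (-2.37, SE 0.41, adjusted p = 0.011) and higher in WT1-intermediate than WT1-negative cells (1.68, SE 0.41, adjusted p = 0.0049, but 0.99 and adjusted p = 0.056 under scaling to the median of all probes). Itga11 and Itgb5 both peaked in WT1-intermediate cells.

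The leukocyte subunits moved in different ways. Itgb2, the common β subunit of leukocyte integrins, was lower in WT1-high than WT1-intermediate cells (-1.75, SE 0.24, adjusted p = 0.0029, but -1.11 and adjusted p = 0.054 under scaling to the median of all probes). Its level was 5.33, 5.81 and 5.44 in WT1-high cells, 7.65, 7.16 and 7.01 in WT1-intermediate cells and 6.73, 5.93 and 6.40 in WT1-negative cells, with no overlap between groups. Its partner Itgam, a macrophage marker, was detected on no WT1-high array and was at least 6.58-fold lower there than in WT1-negative cells (adjusted p = 5.9e-07). Itgb7, of lymphocyte integrins, was detected on no WT1-negative array, so that its level in WT1-high cells was at least 4.36-fold higher (adjusted p = 1.6e-06) and in WT1-intermediate cells at least 6.86-fold higher (adjusted p = 3.2e-07). Like Itgam, the macrophage sums above were lower in WT1-high than WT1-negative cells. Between the liver populations Itgam was not called (-0.53, adjusted p = 0.15 in the limma fit with the samples paired). The summed T and NK cell markers stood at 649 to 986 in WT1-high cells and 581 to 1052 in WT1-intermediate cells. These markers summed to 150 to 167 in WT1-negative cells, where Itgb7 was not detected.

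**Figure D4:**
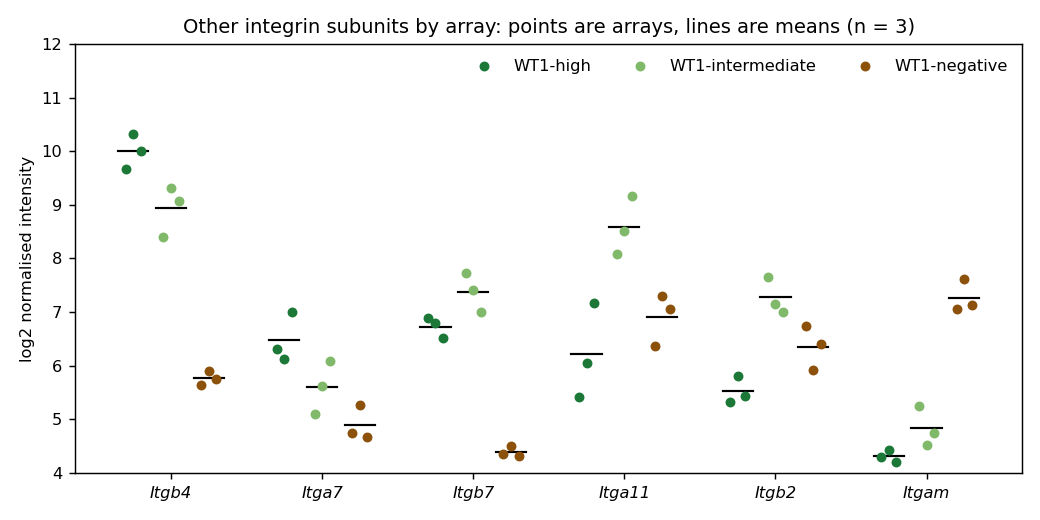
Log2 normalised intensity of 6 other integrin subunits, with 1 point per array and lines for means (n = 3). Itgb4 lay between 8.40 and 10.31 on the liver arrays and between 5.64 and 5.90 on the WT1-negative arrays, and Itga11 and Itgb2 were highest in WT1-intermediate cells.

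For ligands and partners of integrins, the counts below stand beside 3.55% of all tested probes called between the liver populations and 59.6% and 58% called in WT1-high and WT1-intermediate cells against cultured cells. Of 23 tested matrix ligands 1, Spp1, encoding osteopontin, was lower in WT1-high than WT1-intermediate cells (log2 difference -2.03, SE 0.38, adjusted p = 0.016). It ranged from 9.72 to 10.16 in WT1-high cells, from 11.00 to 13.03 in WT1-intermediate cells and from 12.52 to 12.69 in WT1-negative cells, where it exceeded the WT1-high level by more (a difference of -2.59 for WT1-high cells). Against WT1-negative cells 9 ligands were higher and 5 lower in each liver population. Scaling to the median of all probes gave 7 and 9 for WT1-intermediate cells, beside 2545 higher and 8456 lower over all tested probes. Ltbp1, which tethers latent TGF-β to the matrix, differed by 3.09 for WT1-high cells and by 3.17 for WT1-intermediate cells. Col1a2, a chain of type I collagen, was higher by 2.69 in WT1-high cells. Col1a1, the other chain, was lower in WT1-intermediate cells (-1.26). Lamb2, a laminin chain, was higher by 2.61 in WT1-intermediate cells. Tgfb1, the TGF-β1 gene, was lower in WT1-high cells (-1.86) and Thbs1, encoding the TGF-β activator thrombospondin-1, was lower in WT1-intermediate cells (-1.20). WT1-high minus WT1-intermediate differences were 0.30 (Col1a2), -0.13 (Col1a1), -0.10 (Lamb2), -0.78 (Tgfb1) and 0.11 (Thbs1), none called. A gene named for 1 liver population is thus not shown to be particular to it.

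Of 25 tested cytoplasmic partners 1 was lower in WT1-high than WT1-intermediate cells, Fermt3, the kindlin of blood cells (-1.56, SE 0.29, adjusted p = 0.015, but -0.90 and adjusted p = 0.15 under scaling to the median of all probes). In that comparison 8 partners were higher and none lower under that scaling, beside 2563 of all 20573 tested probes higher and 121 lower. With the samples paired 1 partner was higher and 1 lower, beside 1656 of all tested probes called. Against WT1-negative cells 11 were higher and 5 lower in WT1-high cells and 9 were higher and 5 lower in WT1-intermediate cells. The latter became 3 and 8 under scaling to the median of all probes, beside 2545 higher and 8456 lower over all tested probes. Parva and Rsu1, which act with integrin-linked kinase, were higher by 2.09 and 1.97 in WT1-high cells and by 1.79 and 1.74 in WT1-intermediate cells. Fermt3 was lower in both (-3.38 and -1.82). Itgb1bp1, a negative regulator of β1 activation, was lower in WT1-high cells (-1.04), and the endocytic adaptor Dab2 was lower in WT1-intermediate cells (-1.28). Neither was called between the liver populations (-0.35 for Itgb1bp1 and 0.32 for Dab2, WT1-high minus WT1-intermediate).

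Of 10 membrane partners 1, Cav1, encoding caveolin-1, was higher in WT1-high than WT1-intermediate cells (0.70, SE 0.15, adjusted p = 0.028, but 0.65 and adjusted p = 0.066 under scaling to the median of detected probes). Its level was 12.49 to 12.63 in WT1-high cells, 11.70 to 11.97 in WT1-intermediate cells and 6.80 to 7.14 in WT1-negative cells, a 47.1-fold and a 29.1-fold difference from cultured cells. Against WT1-negative cells 6 partners were higher and 2 lower in WT1-high cells, and 7 and 2 in WT1-intermediate cells. Slc3a2, a β1-binding heavy chain of amino acid transporters, was higher by 2.17 in WT1-high cells and the tetraspanin Cd82 by 1.86 in WT1-intermediate cells. Neither was called between the liver populations (0.44 for Slc3a2 and 0.23 for Cd82, WT1-high minus WT1-intermediate). The tetraspanins Cd63 and Cd9 were lower in WT1-high cells (-1.54 and -0.67) and in WT1-intermediate cells (-1.38 and -0.63), although the Cd9 call in WT1-high cells was lost under scaling to the median of all probes (adjusted p = 0.075).

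**Figure D5:**
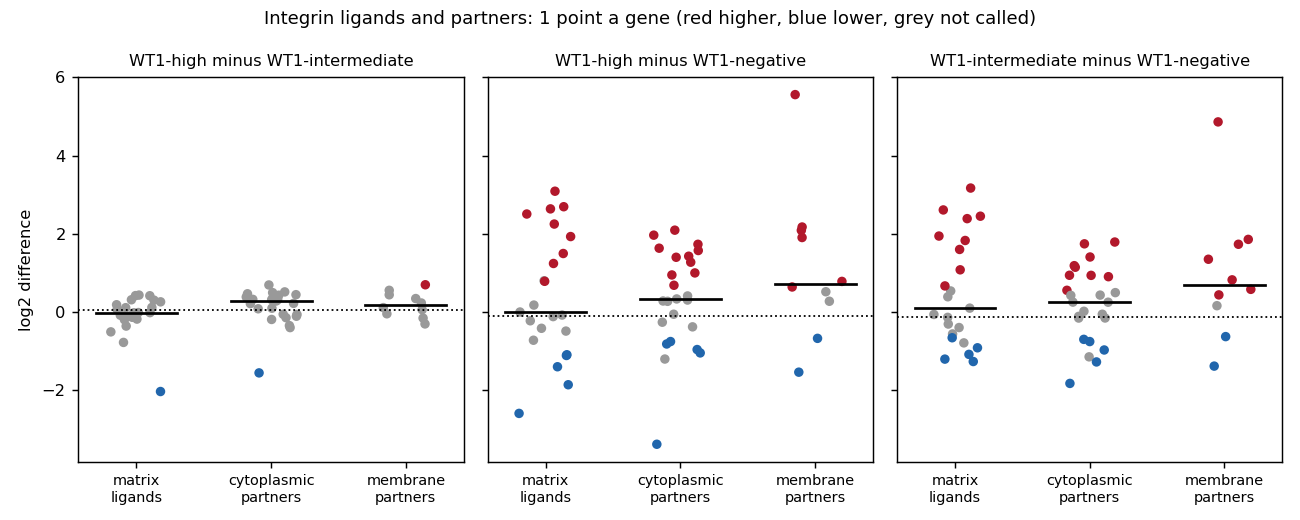
Log2 differences of the tested matrix ligands (23), cytoplasmic partners (25) and membrane partners (10), with 1 point per gene, solid lines for list medians and dotted lines for the median of all tested probes (red higher, blue lower, grey not called). Most points lay near 0 between the liver populations, and Cav1 stood at 5.56 and 4.86 against WT1-negative cells.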

How the data were processed

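The deposited tables held, per the file headers, 1 intensity for each of 45281 gene probes and 936 negative control probes on each array, exported by the authors from BeadStudio with neither background correction nor normalisation. The deposited detection p-value of a probe is its rank among the negative controls. Counts of beads were deposited too and not used in a test. A joined table repeated these intensities (largest difference 0) and had no other use. A single column of the table of liver samples carried the number 29 for a WT1-intermediate array labelled 30 and was taken as that array, the only one of its group left.

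Normalisation and testing used limma (version 3.58.1, R 4.3.3), after the authors' methods: background correction from negative controls (neqc, offset 16), quantile normalisation and log2 transformation over 9 arrays. The filter kept the 20573 probes detected (p under 0.05) in 3 or more arrays. The 3 groups were fitted in 1 linear model (6 residual and 5.19 prior degrees of freedom) and compared with limma's moderated test, two-sided. Adjusted p-values are by Benjamini-Hochberg over all tested probes, and an adjusted p under 0.05 is a call. A member was counted by its brightest tested probe. Where a called probe was not detected on any array of the dimmer group, a lower bound of the fold is given. The code was tested on simulated data. WT1 itself is not analysed here.

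Same-numbered WT1-high and WT1-intermediate arrays (29 with 30, by the column names) deviated together from their group means (correlations 0.35, 0.34 and 0.47, against -0.39 to 0.03 for other pairs), so the samples were treated as paired in an alternative fit. The members and gene lists were chosen with earlier results of these data known. All members were described and all other integrin subunits were counted, with values for other subunits called between the liver populations or among the 4 largest called changes against WT1-negative cells. Itga2b, Itga4, Itga10, Itgad, Itgae, Itgal, Itgax, Itgb6 and Itgb8 entered the counts alone. Of each other list, the genes called between the liver populations and the 2 largest called rises and falls against WT1-negative cells were named. Of the list entries 160 matched a symbol, 1 an older symbol and 4 none. Lists of endothelial, platelet, B cell, biliary and hepatocyte markers were also summed.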

Additional observations from a re-analysis of the deposited data

How the results depend on the processing

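Over all probes, 730 were called between the liver populations, and this count was 335 with no filter, 339 with only the compared groups, 445 at a change of at least 2-fold, and 324 to 866 with 1 array left out. Scaling to the median of all probes was run first and gave 2684 calls, 2563 higher and 121 lower, against 186 and 544 under quantile normalisation. The version over detected probes was added after that output had been seen, and gave 1208 calls, 135 higher and 1073 lower. Under the first, the 1 called member was Itgb1, higher, in place of Itgb5, lower. Under the second it was again Itgb5. Which scaling is nearer to the truth was not tested. Against WT1-negative cells, the first gave 4548 higher and 5050 lower for WT1-high cells and 2545 and 8456 for WT1-intermediate cells, and the second 5670 and 5021, and 7479 and 4061, beside 5443 and 6815, and 5029 and 6906. The second moved the median of all tested probes to -0.18, 0.01 and 0.27 in the 3 comparisons. Cyclic loess gave 6418 and 6066, and 5857 and 5591.

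Detection on all 9 arrays left 7970 and 7716 calls against WT1-negative cells, for WT1-high and WT1-intermediate cells, and a change of at least 2-fold 6073 and 5687. Counted by every probe, 4 member probes were called for WT1-high against WT1-negative cells. At least 2-fold left 0 members between the liver populations and 1 in each comparison with WT1-negative cells. With 1 array left out, 1 to 2 members were called between the liver populations, with 2 only without WT1-high replicate 1.

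With the replicate number as a block, as a random term by the label numbers (consensus correlation 0.38) or as a fixed term by the column-name numbers, 1752 and 1656 probes were called between the liver populations, and the random block changed no member call, with 1, 2 and 4 members in the 3 comparisons. Bead chip could not be used as a block, since the headers name no chips.

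Among the single probes of the members, signs turned, besides that of Itgb5, only for uncalled values. Between WT1-high and WT1-intermediate cells, scaling to the median of all probes gave 0.31 (Itga1), 0.17 and 0.36 (Itga5) and 0.098 (Itgb1, ILMN_2609304), and that of detected probes -0.23 and -0.18 (Itga6) and -0.057 (Itgav). Itgav was at -0.0004 under cyclic loess and -0.012 with array weights, and Itga1 at 0.0035 with the random replicate block. Between WT1-high and WT1-negative cells, the median of detected probes gave 0.020 (Itga1) and 0.020 (Itga9), and cyclic loess 0.038 and 0.023. Between WT1-intermediate and WT1-negative cells, the median of all probes gave -0.34 (Itgav) and -0.081 (Itgb5). The median of detected probes gave 0.34 (Itga1), 0.046 (Itga5, ILMN_2670172), 0.42 (Itga6, ILMN_1223670) and 0.33 (Itgav, ILMN_1251946). The brightest Itga6 probe, ILMN_1231492, stayed lower there (-0.44). Cyclic loess gave 0.074 (Itga1) and array weights 0.031 (Itga5). With 1 array left out, uncalled differences that crossed 0 ranged, between the liver populations, from -0.21 to 0.093 (Itga1) and -0.075 to 0.13 (Itgav), in WT1-high against cultured cells from -0.13 to 0.15 (Itga6, ILMN_1223670), -0.32 to 0.076 (Itga9) and -0.26 to 0.12 (Itgb1), and in WT1-intermediate against cultured cells from -0.29 to 0.047 (Itga1), -0.27 to 0.038 (Itga5) and -0.0009 to 0.57 (Itga9). The cause of these changes was not tested.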

Other observations

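Of the marker lists not described above, the summed endothelial markers reached 1171 to 1568 in WT1-high, 2011 to 2360 in WT1-intermediate and 1394 to 1847 in WT1-negative cells. Platelet and megakaryocyte markers summed to 188 to 261, 514 to 1738 and 1500 to 2786, biliary markers to 1583 to 1696, 954 to 1218 and 290 to 554, hepatocyte markers to 455 to 2400, 579 to 1771 and 142 to 298, and B cell markers to 93.3 to 113, 118 to 132 and 65.6 to 73.7, in the same order of groups. Alb, Fgb and Epcam were detected on no array.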
